A study of Mus musculus with 6 samples.

Results

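The genes of major histocompatibility complex (MHC) class I and class II and of their antigen presentation pathways were compared between normal livers and liver tumors of C3H mice. Members were the probes whose gene name begins with H2- or is B2m, Tap1, Tap2, Tapbp, Ciita, Cd74, Psmb8, Psmb9, Psmb10, Nlrc5, Erap1 or Ifi30. The rule found 69 of the 55681 probes of the array, which stand for 53 genes. Of these, 38 genes belong to class I, 13 to class II, and 2 carry an H2- name but belong to neither class (H2-Ke6, a steroid dehydrogenase, and Pfdn6, a prefoldin subunit whose older name is H2-Ke2). Whole-tissue total RNA was measured on 6 one-colour arrays with probes of 60 bases. The groups were 3 normal livers and 3 liver tumors with a Ha-ras mutation. All samples came from male C3H/HeN mice aged 74 to 75 weeks, second-generation offspring of the unexposed arm of an arsenic exposure project, on a standard diet. The tumors were macroscopic and had arisen spontaneously, and the labels do not state which tumor and which normal liver, if any, came from the same animal.

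Class I molecules consist of a heavy chain (H2-K, H2-D, H2-Q, H2-T and H2-M genes) and the light chain encoded by B2m. They display peptides that the proteasome cuts in the cytosol, that Tap1 and Tap2 carry into the endoplasmic reticulum, that Erap1 trims and that tapasin (Tapbp) helps to load. Class II molecules are pairs of alpha and beta chains (H2-A and H2-E) that the invariant chain Cd74 escorts to endosomes, where H2-DM exchanges its remnant for peptides. In liver, class I is found on most cells, while class II is known from Kupffer cells, dendritic cells, B lymphocytes and sinusoidal endothelium. Nlrc5 and Ciita are the transactivators of class I and class II.

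Levels are processed signals divided by the 75th percentile of the same array, so that a level of 1 equals that percentile. They can be compared between samples for 1 probe and not between probes. A probe was tested where either group had it well above background in each of its 3 samples, a gene was represented by its brightest tested probe, and "called" means an adjusted p under 0.05 in limma over all 24898 tested probes. Well above background were 44.7% to 48.9% of the spots on each array, and precision is limited by having 3 samples a group. The normal livers lay on 1 slide and the tumors on the other, so that tissue and slide cannot be told apart. An exact permutation test of a single gene in 3 against 3 samples cannot go below p = 0.1. The labels do not say that the samples of a group came from separate animals, and the p-values then measure only the spread between these samples.

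Class I heavy chain genes resemble each other, and stretches of their probes are shown because they bear on how far 2 probes can be read as 2 genes. Only exact unbroken runs between member probes were searched. A probe without such a run is therefore not shown to read a single gene. Among the 69 probes, 7 pairs from different genes shared an unbroken run of at least 15 bases. All these pairs were class I heavy chains, and they involved 11 of the 25 tested class I heavy chain probes. H2-K2 is counted with the heavy chains by its name throughout, although the array describes it as a non-coding RNA. The longest runs are given in capitals within 30 bases of each probe, 5′ to 3′.
H2-K1, second probe: TGGAGCTGTGGTGGCTTTTGTGATGAAGAt
H2-T23: TGGAGCTGTGGTGGCTTTTGTGATGAAGAg
H2-K2, second probe: aTCTCCTGTGACATCCAGAGCCCTCAGTTt
H2-Q7: cTCTCCTGTGACATCCAGAGCCCTCAGTTc
H2-Q10: gagtTTGTGGAGGAAATAAATGGCAGatgg
H2-T3: agtaTTGTGGAGGAAATAAATGGCAGcatg
H2-Q10, other probe: atctgAAGGTGATGTCACCCTGAGgtgttg
H2-Q2, other probe: ccccagatctcAAGGTGATGTCACCCTGAG

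The runs were 29 bases for the second H2-K1 probe and H2-T23, 28 for the second H2-K2 probe and H2-Q7, 22 for H2-Q10 and H2-T3, and 19 for the other probes of H2-Q10 and H2-Q2. The array's own annotation, on mm9, puts the second H2-K1 probe, the one of this pair, at chr17:34133984-34134043 and the H2-Q7 probe at chr17:35580315-35580374. The brightest H2-Q10 probe lies at chr17:35611449-35611508 and the other one at chr17:35610036-35610095. The 2 probes named H2-Q2 lie far apart on that annotation. One starts 20.3 kb from the H2-Q1 probe, and the other, at chr17:35460007-35460066, starts 1.85 kb from it. Exons and untranslated regions at these positions were not analysed here. C3H mice carry the k haplotype of this complex, and the probes follow reference transcripts, so bases under a probe can differ in these mice. The part of shared runs and of haplotype in the signals was not tested. The H2-Q, H2-T, H2-K2 and H2-M2 values and those of the second H2-K1 probe are uncertain as values of single genes. The limit by haplotype holds for the other H2- probes too.

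Class I genes were more often higher than lower in the tumors, while no class II gene was called. Of the 38 class I genes, 29 had a tested probe, and 13 of these were called higher, 1 was called lower and 15 were not called. Of all genes tested, 13.1% were called higher and 21.0% lower. The median log2 fold change of the 29 class I genes was 0.36, against -0.13 for all 18566 genes tested. Class II had 6 tested genes of 13, with a median of -0.25 and all 6 log2 fold changes negative, of which those of H2-Eb1 and H2-DMb1 turned positive with spike-in scaling. None of the 6 had an unadjusted p under 0.05 in limma, and the methods' t-test called none of them either. H2-Ke6 and Pfdn6 were both called lower. In 16 of the 29 class I genes the groups did not overlap, as in 51.8% of all genes, and in 15 of them the tumors lay above. Each left-out sample lowered the count of 13 class I genes called higher. It was 7, 6 and 6 without normal liver 1, 2 or 3, and 8, 10 and 9 without tumor 1, 2 or 3. With scaling by the spike-in controls of each array, the median of all tested probes moved from -0.13 to 0.025, and 59.9% of the called genes were higher in place of 38.5%. With this scaling 9 class I genes were called higher, and H2-Q10, H2-Q8, H2-K2 and H2-Q5 lost their calls. The class I median stood 0.49 above the median of all tested probes, and the class II median stood at -0.125 against it, with either scaling. Both scalings shift all probes of an array by the same amount, so these distances could hardly change and are no check on the scaling.

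**Figure D1:**
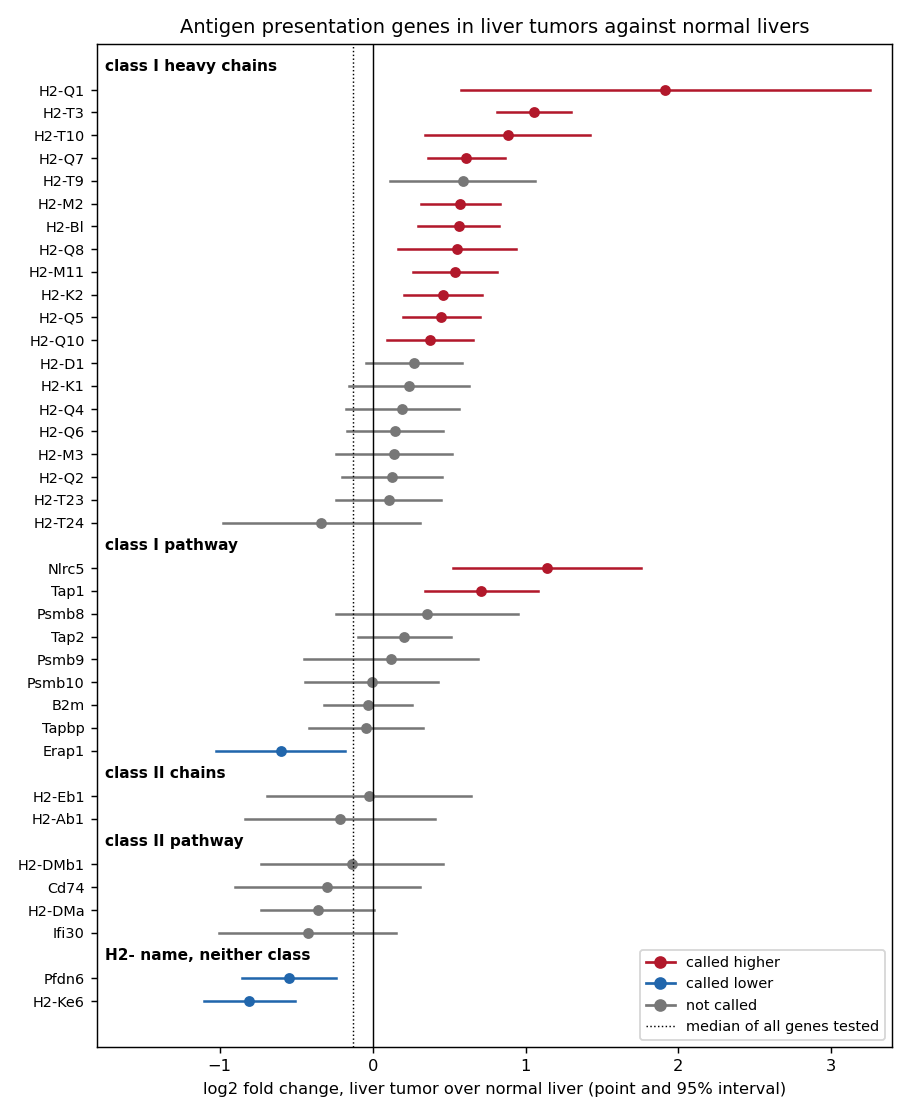
Log2 fold change of the 37 genes with a tested probe, liver tumor over normal liver, with the 95% interval from limma (n = 3 per group), grouped by role. Red genes were called higher and blue genes lower at an adjusted p under 0.05. The dotted line is the median of all genes tested, -0.13. The 13 red class I genes range from 0.38 for H2-Q10 to 1.91 for H2-Q1, and the 6 class II genes lie left of 0 under this scaling with intervals that cross it, and H2-Eb1 and H2-DMb1 lie right of it with spike-in scaling.

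The classical heavy chains H2-K1 and H2-D1, which present peptides to cytotoxic T lymphocytes, did not pass the test. H2-K1 stood at 221, 219 and 232 in normal livers 1 to 3 and at 329, 221 and 253 in tumors 1 to 3. Tumor 1 was far above the other samples, and tumor 2 lay within the normal range. The log2 fold change was 0.24 ± 0.16 (SE, adjusted p = 0.30 in limma). The other H2-K1 probe, which shares 29 bases with the H2-T23 probe, gave 0.25. H2-D1 stood at 13.2, 12.3 and 13.1 in the normal livers and at 16.5, 13.3 and 17.0 in the tumors. The groups were apart by a small margin, with a log2 fold change of 0.27 ± 0.13 (SE, adjusted p = 0.16). No probe of H2-L was found under that name.

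H2-Q10, a class I molecule that liver is known to secrete, was called higher by both of its probes. The brightest probe was at 379, 457 and 398 in the normal livers and at 545, 546 and 507 in the tumors, or 412 ± 40.6 against 533 ± 21.8 (SD, n = 3). All tumors lay above all normal livers, and the log2 fold change was 0.38 ± 0.12 (SE, adjusted p = 0.0497). The call of this probe was lost when any of the 6 samples was left out and with spike-in scaling. The other probe went from 105, 124 and 103 to 201, 204 and 186. Its tumors agreed within a narrow band, and its log2 fold change was 0.83 (adjusted p = 0.0043), called also without any 1 of the 6 samples. The 2 probes thus gave unequal sizes for 1 gene, and the second shares its run of 19 bases with an H2-Q2 probe.

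The other heavy chains with the largest called changes were H2-Q1, H2-T3, H2-T10, H2-Q7 and H2-M2, all nonclassical class I genes. H2-Q1 was at 1.14, 4.2 and 0.921 in the normal livers and at 7.25, 5.01 and 6.48 in the tumors. Normal liver 2 stood apart from the other normal livers and close to tumor 2. The log2 fold change of 1.91 ± 0.56 (SE, adjusted p = 0.041) rose to 2.59 without normal liver 2, and the call was lost on leaving out any other sample. H2-T3, whose product is the thymus leukemia antigen, was at 0.682, 0.638 and 0.654 in the normal livers and at 1.39, 1.42 and 1.30 in the tumors. Both groups were tight, and this gene had the lowest adjusted p of all members, 0.0011, with a log2 fold change of 1.06 ± 0.10 (SE). A second H2-T3 probe stayed near background in all samples, and the first shares 22 bases with the brightest H2-Q10 probe.

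H2-T10, a ligand known for T lymphocytes of the gamma delta type, was at 2.02, 2.49 and 2.81 in the normal livers and at 5.79, 3.41 and 4.49 in the tumors. The groups were apart, with tumor 1 highest and tumor 2 lowest. Its log2 fold change was 0.88 ± 0.23 (SE, adjusted p = 0.027), and the call was lost without normal liver 1 or 2 or without tumor 1 or 3. H2-Q7, a Qa-2 antigen gene, went from 200, 219 and 195 to 324, 308 and 308, and H2-M2 from 55.5, 60.9 and 57.7 to 92.0, 85.6 and 81.7. Tumors of both genes lay close together and well above the normal livers. The log2 fold changes were 0.61 ± 0.10 and 0.57 ± 0.11 (SE), with adjusted p = 0.0072 and 0.0096. A second H2-M2 probe was well above background in 2 tumors and no normal liver, at levels of 0.0589 to 0.190, and was not tested. The brightest H2-M2 probe was well above background in every sample. The 2 probes thus disagreed on whether normal liver gave a signal, and the reason was not tested.

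The remaining 12 tested heavy chain genes ranged from -0.34 to 0.59 in log2 fold change. Called higher among them were H2-Bl, H2-Q8, H2-M11, H2-K2 (described as a non-coding RNA) and H2-Q5, with log2 fold changes of 0.56, 0.55, 0.54, 0.46 and 0.45. Among the brightest probes, the class I calls of H2-Bl, H2-M2, H2-Q7 and H2-T3 held without any 1 sample, and no other did so. H2-M11 lost its call without normal liver 2, and H2-Q5 without normal liver 1 or 3 or tumor 2. The call of H2-Q8 was lost whichever of the 6 samples was left out. The brightest H2-K2 probe lost it without normal liver 1, 2 or 3 or without tumor 1. The second H2-K2 probe (log2 fold change 0.51) stayed called whichever sample was left out. H2-T9 had a log2 fold change of 0.59 with the groups apart and an adjusted p of 0.062. H2-Q2, H2-Q4, H2-Q6, H2-M3 and H2-T23, which encodes the Qa-1 antigen, lay between 0.10 and 0.19 and were not called. H2-T24 was at -0.34 and not called. The probes of H2-Q2 disagreed. The brightest gave 0.13 and was not called, and the other one, which lies near the H2-Q1 probe, gave 0.58 with an adjusted p of 0.012 and was called also without any 1 sample. The 9 class I genes without a tested probe (H2-M1, H2-M10.1, H2-M10.2, H2-M10.3, H2-M10.4, H2-M10.6, H2-M5, H2-M9 and H2-T18) did not exceed background clearly in any sample.

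**Figure D2:**
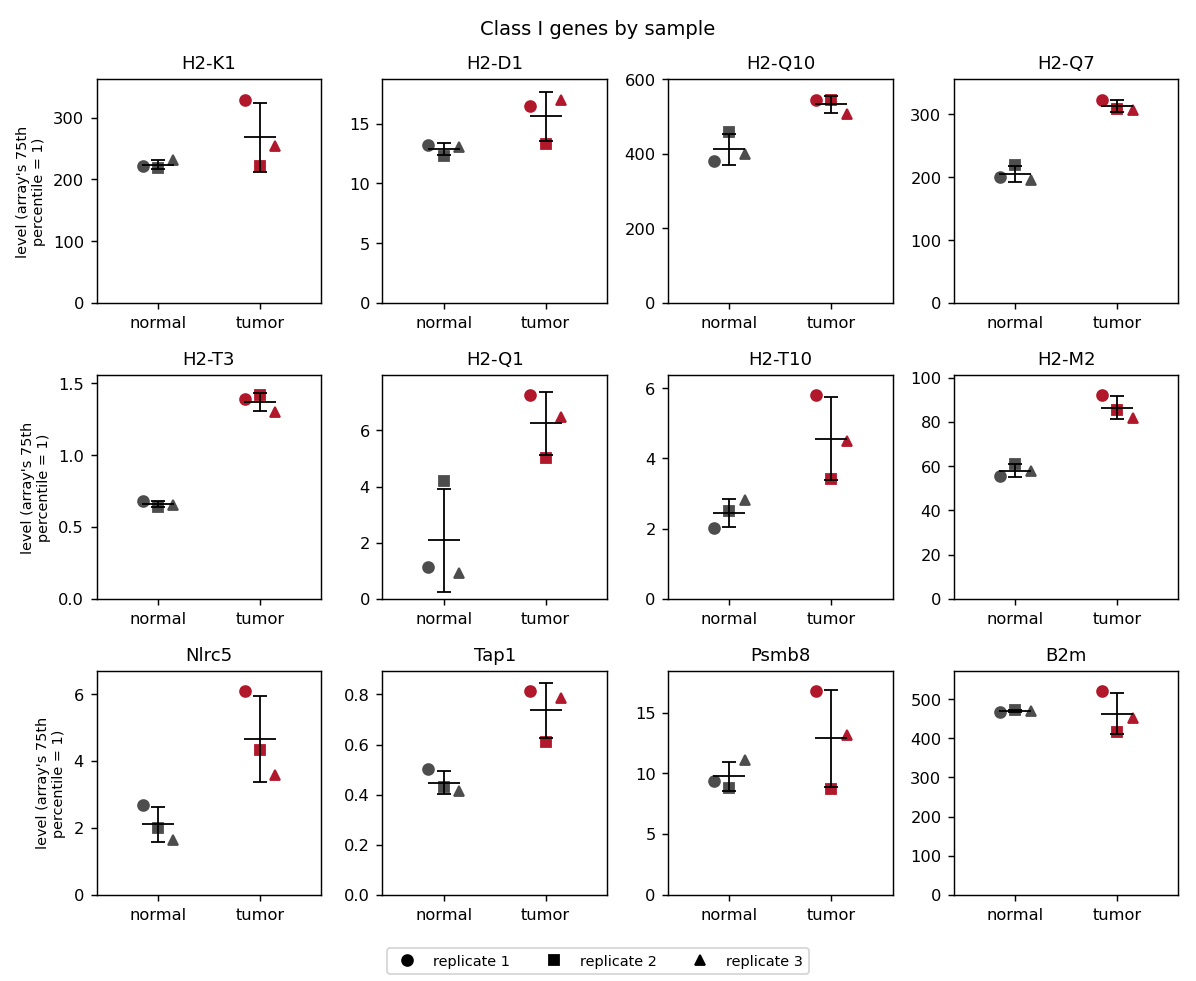
Levels of 12 class I genes in each sample (75th percentile of the array = 1, linear axes from 0), with the mean and SD as bars (n = 3 per group) and the replicate number as the symbol. H2-Q10, H2-Q7, H2-T3 and H2-M2 show tight tumors above the normal livers. In H2-K1, Psmb8 and B2m, tumor 1 is high and tumor 2 lies within or below the range of the normal livers.

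In the class I pathway, the transactivator and 1 transporter subunit rose, the trimming peptidase fell, and the other 6 of the 9 genes did not pass the test. Nlrc5 was at 2.68, 2.0 and 1.64 in the normal livers and at 6.08, 4.33 and 3.57 in the tumors. All tumors lay above all normal livers, with a log2 fold change of 1.14 ± 0.26 (SE, adjusted p = 0.018). A second Nlrc5 probe was well above background in only 1 normal liver and 1 tumor and was not tested. Tap1 was at 0.502, 0.429 and 0.413 in the normal livers and at 0.813, 0.611 and 0.785 in the tumors. Its log2 fold change was 0.71 ± 0.15 (SE, adjusted p = 0.016). The groups were apart here too. The calls of Nlrc5 and Tap1 were lost without normal liver 2 or 3, with adjusted p up to 0.0579 and 0.0576.

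Erap1 was lower in all tumors, at 0.694, 0.582 and 0.731 against 0.884, 0.926 and 1.26. Its log2 fold change of -0.60 ± 0.18 (SE, adjusted p = 0.041) was not called after any 1 sample was left out. It was not called with quantile or spike-in scaling either. Tap2, the partner of Tap1, was at 15.1, 15.5 and 15.6 in the normal livers and at 19.8, 15.4 and 18.4 in the tumors. Tumors 1 and 3 lay above the normal livers and tumor 2 among them (log2 fold change 0.21 ± 0.13 SE, adjusted p = 0.255).

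The light chain and the immunoproteasome were not called. B2m was at 468, 474 and 470 in the normal livers and at 521, 417 and 452 in the tumors. The normal livers were nearly equal, while the tumors lay on both sides of them, with a log2 fold change of -0.029 (95% interval -0.32 to 0.26). Tapbp was at 11.7, 12.5 and 13.2 against 14.8, 10.6 and 11.3, with -0.042 (-0.42 to 0.33). Of the immunoproteasome subunits, which replace the catalytic subunits of the proteasome after interferon, Psmb8 was at 9.37, 8.76 and 11.1 against 16.7, 8.73 and 13.1. Psmb9 was at 8.62, 7.99 and 9.21 against 11.9, 6.46 and 10.6. For Psmb10, the values were 38.8, 40.8 and 47.5 against 51.5, 33.7 and 42.8. In all 3 subunits tumor 1 was the highest sample and tumor 2 the lowest, so that the groups overlapped. The log2 fold changes were 0.36, 0.12 and -0.0046, with 95% intervals of -0.24 to 0.95, -0.45 to 0.69 and -0.44 to 0.43. The signs of B2m, Tapbp and Psmb10 turned under some scalings of the arrays.

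The class I probes fell into different sample-to-sample patterns. Tumor 1 was the highest tumor in 8 of the 9 pathway genes and tumor 2 the lowest in 8 of 9, while over all genes tested these shares were 37.3% and 29.6%. To describe the pattern, each probe's deviations from its group means were correlated with those of H2-K1 and of H2-Q10 over the 6 arrays, a measure chosen after the values were seen. With H2-K1, 13 class I probes had r above 0.8. They were the second H2-K1 probe, the brightest H2-Q2 probe, H2-Q6, H2-T9, H2-T10, H2-T23, the dimmer H2-T24 probe, B2m, Tap2, Tapbp, Psmb8, Psmb9 and Psmb10. Of these 13, only H2-T10 was called. With H2-Q10, 7 heavy chain probes had r above 0.8, namely the second H2-Q10 probe, the other H2-Q2 probe, H2-Bl, H2-M2, H2-Q1, H2-Q5 and H2-Q7. All 7 were called higher. Normal liver 2 was the highest normal liver in each of them, as in H2-Q10 itself. Choosing probes by their r with H2-Q10 favours this, so it is no separate finding. No pathway gene and no class II gene was in the second set. Of all tested probes, 6.12% had r above 0.8 with H2-K1 and 3.94% with H2-Q10. These correlations rest on arrays with common scaling, and probes with shared runs are not independent points. Whether a probe is called also depends on its spread within the groups, which these deviations hold, so call and pattern are not independent.

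**Figure D3:**
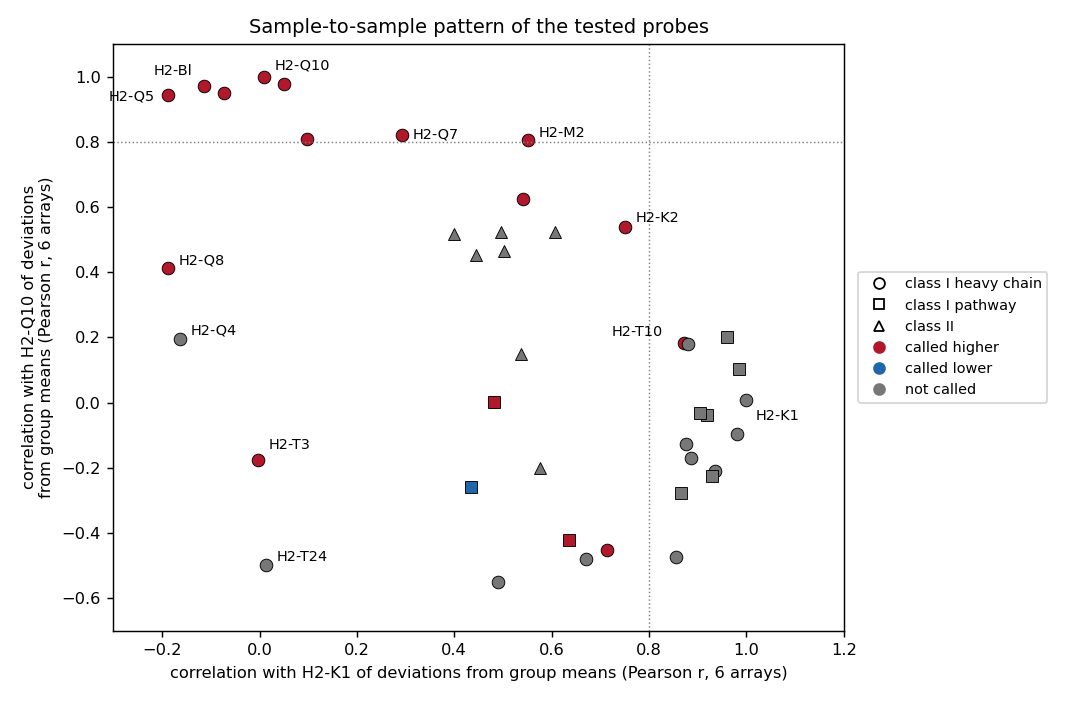
Pearson r of each tested class I and class II probe with H2-K1 (horizontal) and H2-Q10 (vertical), computed over 6 arrays from deviations from the group means, with dotted lines at 0.8. Circles are heavy chains, squares class I pathway genes and triangles class II genes, and colours give the limma call. The 7 heavy chain probes above the horizontal line, besides H2-Q10 itself, were all called higher, and of the 13 probes right of the vertical line, besides H2-K1 itself, only H2-T10 was called. Calls and correlations both use the spread within the groups and are not independent.

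Upstream sequence is shown for 4 class I heavy chains because H2-Q7 and H2-Q10 were called higher and H2-K1 and H2-D1 were not. H2-D1 was in neither set above. RefSeq promoter windows (250 bases before to 50 after the gene start, GRCm38.p6, from C57BL/6J mice) were found for 38 of the 53 member genes. Capitals mark GGATTCCC, part of the kappa B site of the class I enhancer, and TTTCACTTC, part of its interferon element. Both were searched on both strands, with overlapping matches allowed.
H2-K1: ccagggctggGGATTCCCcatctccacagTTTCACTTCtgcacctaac
H2-D1: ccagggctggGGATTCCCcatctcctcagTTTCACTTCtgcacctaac
H2-Q7: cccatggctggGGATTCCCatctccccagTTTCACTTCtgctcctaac
H2-Q10: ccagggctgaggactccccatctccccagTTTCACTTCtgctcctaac

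These stretches lie at chr17:34000419-34000466 on the minus strand for H2-K1, and on the plus strand at chr17:35262915-35262962 for H2-D1, chr17:35439013-35439060 for H2-Q7 and chr17:35469905-35469952 for H2-Q10. GGATTCCC was found in H2-K1, H2-D1, H2-Q6 and H2-Q7, or 4 of the 20 class I heavy chain genes with a window, and in 1.02% of all promoters. At the place where H2-K1 has GGATTCCC, H2-Q10 differs by T4C (H2-K1 first, counted from the 5′ end of GGATTCCC). TTTCACTTC was in 7 of the 20 genes, H2-Q10 among them, and in 0.505% of all promoters. A match is a string of letters and no measured site.

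In class II, the classical chains and the invariant chain overlapped between the groups. H2-Ab1, the beta chain of H2-A, was at 7.80, 8.82 and 5.60 in the normal livers and at 8.57, 5.92 and 4.89 in the tumors. H2-Eb1, the beta chain of H2-E, was at 10.7, 12.5 and 8.05 against 14.6, 9.03 and 7.72. For Cd74, the invariant chain, levels were 11.8, 12.3 and 8.05 against 11.4, 8.30 and 6.63. Normal liver 3 was the lowest normal sample and tumor 3 the lowest tumor in each of the 3 genes, and the spread within each group exceeded the difference between them. The log2 fold changes were -0.21 (95% interval -0.83 to 0.41), -0.024 (-0.69 to 0.64) and -0.30 (-0.90 to 0.31). A second H2-Ab1 probe gave -0.09. The 2 probes overlap by 51 bases and differ in the overlap only by T51C, counted from the 5′ end of the first, and the base is in capitals.
H2-Ab1, first probe: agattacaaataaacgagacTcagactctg
H2-Ab1, second probe: agattacaaataaacgagacCcagactctg

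H2-DMa and H2-DMb1, which form the peptide exchanger H2-DM, and Ifi30, a thiol reductase of endosomes, were measured too. H2-DMa was at 0.449, 0.472 and 0.444 in the normal livers and at 0.412, 0.375 and 0.288 in the tumors. It was the only class II gene whose groups were apart, and it was not called (log2 fold change -0.36 ± 0.15 SE, adjusted p = 0.12). H2-DMb1 was at 1.87, 1.61 and 1.18 against 1.86, 1.26 and 1.14, with -0.14 (95% interval -0.73 to 0.46). Ifi30 was at 1.90, 2.12 and 2.44 against 1.76, 1.12 and 2.06, with -0.42 (-1.0 to 0.15). Both overlapped between the groups. The signs of H2-Eb1 and H2-DMb1 turned under some scalings.

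The other 7 class II genes had no tested probe. H2-Aa, the alpha chain of H2-A, was well above background in 1 normal liver and 1 tumor, at 0.553, 0.111 and 0.0726 in the normal livers and 0.114, 0.0928 and 0.149 in the tumors. Normal liver 1 was the high sample. Ciita was well above background in 1 normal liver and 2 tumors, with levels of 0.257, 0.115 and 0.0879 against 0.155, 0.10 and 0.123. H2-Ea (0.0230 to 0.122), H2-Oa (0.0512 to 0.120), H2-Eb2 and H2-DMb2 did not exceed background clearly in any sample. The array names the H2-Ea probe H2-Ea-ps and describes it as a pseudogene. H2-Ob, with 3 probes, was well above background in 2 tumors on 1 probe and nowhere on the others. Signals below background have no order.

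**Figure D4:**
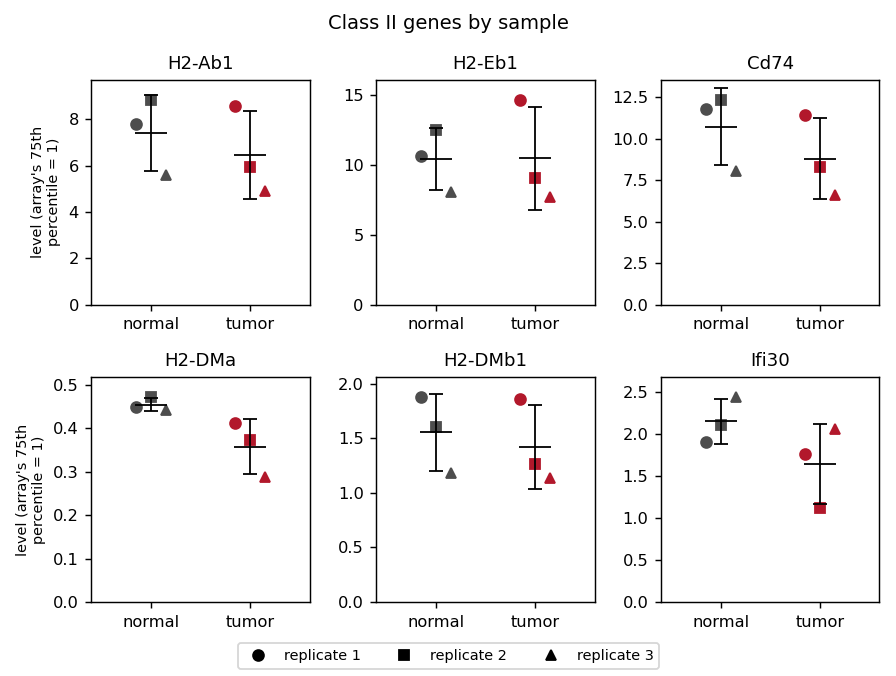
Levels of the 6 tested class II genes in each sample (75th percentile of the array = 1, linear axes from 0), with the mean and SD as bars (n = 3 per group) and the replicate number as the symbol. Tumor 1 lies among the normal livers in H2-Ab1, Cd74 and H2-DMb1, and H2-DMa is the gene whose tumors all lie below the normal livers.

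Class II promoters are known for a Y box, whose core is CTGATTGG here. It was found in H2-Aa, H2-Eb1 and H2-Eb2, all 3 class II chain genes with a promoter window. Of the 6 class II pathway genes with a window, only 1, H2-Oa, had it. It was also in 12 of the 20 class I heavy chain genes, 2 of the 7 class I pathway genes (Psmb9 and Tap1) and 4.10% of all promoters. The promoters of H2-Aa and H2-Eb1 are shown as H2-Eb1 was tested and H2-Aa was not well above background in most samples. These genes encode chains of different molecules, H2-A and H2-E. H2-Ab1, the other chain of H2-A, was well above background in all samples. The part of its probe and of haplotype in the low H2-Aa signal was not tested. The 2 stretches lie at chr17:34287857-34287914 on the minus strand for H2-Aa and chr17:34305765-34305822 on the plus strand for H2-Eb1 (GRCm38.p6).
H2-Aa: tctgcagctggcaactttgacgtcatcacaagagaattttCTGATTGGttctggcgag
H2-Eb1: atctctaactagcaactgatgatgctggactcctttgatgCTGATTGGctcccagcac

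The wider motif ATTGG, which CTGATTGG contains, was in 37.4% of all promoters and TTCNNNGAA, the core of the gamma interferon activation site, in 8.30%. Among the members, TTCNNNGAA was found in H2-M3, H2-M11, Psmb8 and H2-DMb2.

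Markers of the cells that carry class II were read beside these genes. In bulk tissue, fewer cells of a type and less RNA per cell cannot be told apart. Counts of called markers stand beside the 21.0% of all genes tested that were called lower and the 13.1% called higher. Of 11 tested macrophage and Kupffer cell markers, 7 were called lower and none higher, with a median log2 fold change of -1.08. Their summed level, in which bright probes weigh most, was 113 to 193 in the normal livers and 58.8 to 96.8 in the tumors. Clec4f, Vsig4 and Timd4, which mark Kupffer cells, fell by 1.84, 1.27 and 1.65 on the log2 scale. Of the normal livers, normal liver 3 had the highest macrophage sum, 193. It was the lowest of them in Cd74, H2-Ab1, H2-Eb1 and H2-DMb1 and the highest in Ifi30. In H2-DMa it was the lowest by a small margin only, at 0.444 against 0.449 in normal liver 1. The pan-leukocyte sum was 6.98 to 10.5 in the normal livers and 5.95 to 9.74 in the tumors, with 1 of 6 genes called, Laptm5, which was lower. Of 6 endothelial markers, Stab2 and Clec4g were called lower and 4 were not called, with a median log2 fold change of -0.0052. The sum of the 6 was 104 to 117 in the normal livers and 80.0 to 88.7 in the tumors.

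The B lymphocyte list had 3 of 7 genes tested and none called, with sums of 4.53 to 5.04 against 4.39 to 4.58. Its defining markers Ms4a1 and Pax5 were not tested for lack of signal. In the dendritic cell list 4 of 9 genes were tested, and Zbtb46 was called higher. Its sums of 223 to 250 and 232 to 270 were nearly all from 1 probe, Siglech, and Flt3, Xcr1 and Clec9a were not tested. Of the T and NK lymphocyte list 4 of 10 were tested. Cd4 was called higher (59.5 ± 1.23 against 184 ± 50.8, SD, n = 3), and Cd3e, at 5.96 to 7.73 and 5.83 to 7.72, was not. The sums of this list, 69.8 to 73.8 against 144 to 248, were mostly that 1 Cd4 probe, and Cd3d, Cd3g, Cd8a and Cd8b1 were not well above background often enough to be tested. The hepatocyte sum was 5464 to 6035 in the normal livers and 5507 to 5778 in the tumors, with Apoa1 called higher and Tat and Serpinc1 lower. The part of cell makeup in the MHC values was not tested.

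**Figure D5:**
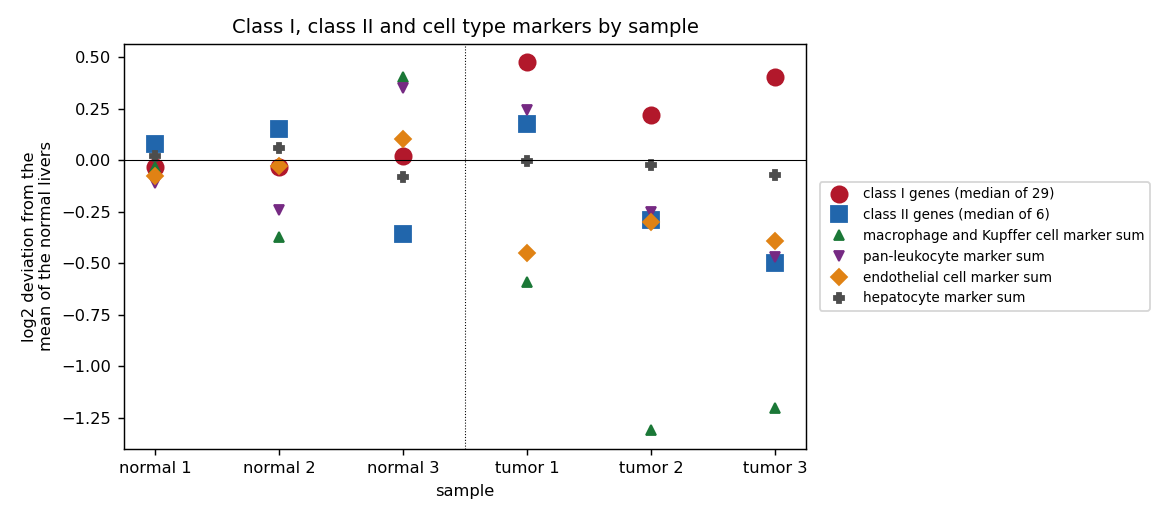
Log2 deviation of each sample from the mean of the normal livers, for the median of the 29 tested class I genes, the median of the 6 tested class II genes, and the summed markers of 4 cell types. Class I lies above 0 in all 3 tumors (0.48, 0.22 and 0.40), class II lies above 0 in tumor 1 (0.18) and below in tumors 2 and 3 (-0.29 and -0.50), and the macrophage sum lies below 0 in all tumors.

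Other genes of the pathway were read from 6 lists, whose counts stand against the 13.1% of all genes called higher and the 21.0% called lower. The lists were not tested against that background, and the share called lower among the peptide loading genes and that called higher among the interferon gamma genes were close to it. Among 9 peptide loading and trimming partners, none was called higher and 2 were lower, the chaperones Canx (41.7 ± 2.10 against 29.2 ± 2.79, SD, n = 3) and Hspa5 (226 ± 43.0 against 146 ± 16.3). The list's median log2 fold change was -0.20. Of 11 genes of the constitutive proteasome and its activators, 5 were lower and 1 was higher, with a median of -0.33. The proteasome activator Psme3 rose from 20.8 ± 2.42 to 74.9 ± 32.9, with tumor 1 at 113 and tumors 2 and 3 at 53.9 and 58.1. Psme4 and Psma1 fell by 0.68 and 0.49 on the log2 scale. Psme1 and Psme2, which encode the activator that interferon induces, were at -0.34 (called) and -0.33 (not called).

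Of 16 tested genes of interferon gamma signalling and MHC transcription factors, 2 were called higher, 1 lower and 13 not, with a median of 0.0092. The genes called higher encode the chains of the interferon gamma receptor. Ifngr1 went from 5.97, 5.74 and 6.11 to 16.0, 17.5 and 16.9 (log2 fold change 1.5 ± 0.10 SE, adjusted p = 0.00032) and Ifngr2 from 4.03, 3.99 and 3.99 to 7.67, 5.58 and 6.64 (0.72, adjusted p = 0.0115). The groups of both were far apart. Irf2 fell by 0.83 on the log2 scale. Irf1, a transcription factor downstream of the receptor, was at 12.8, 14.8 and 13.6 against 14.9, 12.8 and 15.2. Its groups overlapped, and it was not called. Ifng itself was not tested for lack of signal, nor were Rfx5 and Creb1.

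Of 10 tested genes of endosomal class II processing, 2 were higher and 5 lower, with a median of -0.45. Marchf1, a ubiquitin ligase known to remove class II from the surface, fell from 4.73 ± 0.929 to 1.5 ± 0.566 (SD, n = 3), and its groups were apart (log2 fold change -1.71, adjusted p = 0.0087). Ctss, the cathepsin that trims the invariant chain, fell by 0.95 on the log2 scale (adjusted p = 0.049). Lgmn, an endosomal protease, rose by 0.65. Of 8 tested class I-like molecules encoded outside the complex, 4 were lower and none higher, with a median of -0.50. Fcgrt, the neonatal Fc receptor, fell by 0.96, Hfe, which takes part in iron sensing, by 0.78, and Cd1d1, which presents lipids, by 0.64 on the log2 scale. The products of these 3 genes are known to pair with B2m. None of the 8 genes was called higher, whereas 11 of the 20 tested heavy chain genes of the complex, H2-K2 included, were. That difference between the lists was not tested.

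Of 5 tested costimulatory and inhibitory ligands, 2 were higher and 2 lower, with a median of -0.36. Cd40, a receptor on antigen presenting cells, was at 0.0389, 0.0308 and 0.143 in the normal livers and at 3.0, 2.74 and 2.97 in the tumors. It was well above background in all tumors and in only 1 normal liver, so that no size of the difference is given. Icosl rose from 0.322, 0.161 and 0.308 to 1.59, 1.15 and 1.5. The ligands Cd86 and Cd80, which costimulate T lymphocytes, fell by 1.37 and 0.86 on the log2 scale. Cd274 was at 0.314, 0.168 and 0.199 against 0.330, 0.107 and 0.142 and was not called.

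The members with an H2- name outside both classes moved opposite to class I. H2-Ke6 was at 71.2, 76.2 and 71.9 in the normal livers and at 36.7, 43.1 and 46.0 in the tumors, and Pfdn6 at 8.57, 9.01 and 10.1 against 6.04, 5.87 and 7.06. All tumors lay below all normal livers in both genes. The log2 fold changes were -0.81 ± 0.12 and -0.55 ± 0.13 (SE), with adjusted p = 0.0052 and 0.020. Neither was called with spike-in scaling. The call of H2-Ke6 held without any 1 sample, and that of Pfdn6 was lost without normal liver 2 or 3 or without tumor 1 or 2.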

How the data were processed

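Total RNA of 3 normal livers and 3 liver tumors was hybridised to 1-colour Agilent mouse arrays. Per the labels, images were read with Agilent Feature Extraction (version 12.0.3.1 in the submitters' processing notes, 10.7.3.1 in the file headers). The scanner files deposited by the authors hold the processed signal intensity of each spot, corrected for background. A deposited table holds the ratio of each signal to the 75th percentile of its array.

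Here log2 of the processed signal minus that of the array's 75th percentile was used, with spots of a probe averaged. A probe was tested if every sample of either group had it well above background, with limma 3.58.1 (R 4.3.3; lmFit and eBayes on the 2 groups, no covariates) with Benjamini-Hochberg adjustment over all 24898 tested probes. Intervals are 95% limits of that fit. Tables and sequences were handled in Python 3.11.15 with pandas 2.3.3. The step was tested on simulated data. Probes took the RefSeq symbol of their accession (27229 probes), of the symbol (3586) or of a synonym (565), or kept the design's name (24301).

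The members, the gene lists and the motifs were chosen with earlier results of these data known. Named with values in every sample were the classical class I chains, H2-Q10, the class I and class II pathway genes, and the 5 other heavy chains with the largest called change. From each other pathway list up to 3 called genes with the largest change were named. Psme1, Psme2, Irf1, Cd274 and the marker genes were named after their values were seen. Alternatives changed the background correction, the scaling, the filter, the probe of a gene, the test, the replicate block and the samples. A slide block was not possible, since each tissue lay on 1 slide. Some genes of the lists are not reported here.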

Additional observations from a re-analysis of the deposited data

How the results depend on the processing

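Class II had 0 called genes under each alternative run. The 13 class I genes called higher, which are also the 13 members called higher, became 2 with no filter on dim probes, where all 55681 probes were tested. They became 8 with the methods' t-test, unpaired, and 0 with it paired, where 11 had an unadjusted p under 0.05, and 3 when a change of 2-fold or more was also asked for. Without 1 sample they numbered 6 to 10. The 1 class I gene called lower, Erap1, became 0 with quantile normalization, spike-in scaling, no filter, either t-test or the 2-fold limit, and 0 without any 1 sample. The 3 members called lower became 0 with spike-in scaling, 1 with no filter, 0 with the paired t-test, 0 with the 2-fold limit and 1 to 2 without 1 sample. The class I median log2 fold change moved from 0.36 to 0.51 with spike-in scaling and to 0.17 with no filter. The cause was not tested. The class II median ranged from -0.45 without tumor 1 to -0.07 without tumor 3. For the named genes, 370 of the values under alternatives kept their direction and side of the threshold, 59 lost the call and 31 changed sign. No gene called in the reported fit was among the 31.

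The sign changes were all in 6 genes that were not called, and they were positive except for Psmb9. With normexp background correction the log2 fold changes were 0.066 for B2m, 0.081 for Tapbp, 0.060 for Psmb10 and 0.043 for H2-Eb1. Quantile normalization gave 0.11, 0.074, 0.21 and 0.095 for the same genes. Spike-in scaling gave 0.13, 0.11, 0.15 and 0.13, and 0.018 for H2-DMb1. The 75th percentile over non-control spots gave 0.0034 for Psmb10, and the methods' t-test, paired or unpaired, gave 0.011 for Psmb10 and 0.0081 for H2-Eb1. Without 1 sample, B2m ranged from -0.12 to 0.044, Tapbp from -0.19 to 0.055, Psmb10 from -0.15 to 0.15, Psmb9 from -0.054 to 0.39, H2-Eb1 from -0.29 to 0.17 and H2-DMb1 from -0.35 to 0.012.

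With the replicate number as a block, 9 class I genes were called higher and 1 lower. Correlations of same-numbered samples' deviations were 0.069, 0.13 and 0.051, and tumor 3 correlated best with normal liver 2, so the numbers were not taken as pairs. Probes near background set the lower limit of what was measured, and 16 of the 53 genes had no tested probe.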
